A study of Caenorhabditis elegans with 10 samples.

Results

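The 8 genes for conserved heterotrimeric G protein subunits of Caenorhabditis elegans were followed between sorted ASH neurons and sorted cells that were not ASH. They were taken by name from the authors' deposited table and are the alpha subunit genes goa-1, egl-30, gsa-1, gpa-12 and gpa-16, the beta subunit genes gpb-1 and gpb-2, and the gamma subunit gene gpc-2. All 8 were found among its 46272 genes, and all 8 are among the 16802 genes for which the authors' DESeq2 analysis gave an adjusted p, called tested here. ASH cells had been sorted by flow cytometry on a YFP label, and the cells without YFP from the same kind of sort, called YFP-negative here, were their control. Both groups came from wild-type worms grown on standard plates with no treatment, with 5 libraries each and no stated age, and the sources used here do not give the promoter that drove YFP. The table holds 1 Cuffdiff value per gene and group, in FPKM (fragments per kilobase of transcript, scaled to sequencing depth), to which the authors had added 1. That 1 is subtracted in every level below. No library values were used, so the levels carry neither a standard deviation nor an n, and the depth behind them is unknown.

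A heterotrimeric G protein consists of an alpha subunit, which binds GTP when a receptor on the cell surface is activated, and a beta-gamma pair that is released with it. Most animals share a small set of alpha classes, called Go and Gi, Gq, Gs and G12, and C. elegans has in addition a large nematode set of alpha subunits used in many sensory neurons. In worm motor neurons Gq signalling through EGL-30 promotes transmitter release and Go signalling through GOA-1 opposes it, while Gs signalling through GSA-1 raises cyclic AMP. ASH, a head sensory neuron that triggers avoidance, uses the nematode alpha subunits ODR-3 and GPA-3 in its sensory response.

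None of the 8 conserved genes was called higher or lower in ASH, and each stood at a similar order of magnitude in both fractions. By DESeq2 at an adjusted p under 0.05, 0 of 8 were called in either direction in the authors' deposited table, against 9.76% of all tested genes, of which 5.32% were higher in ASH and 4.44% lower. By Cuffdiff at a q under 0.05, 0 of 8 were called as well, against 7.11% of tested genes, 3.58% higher and 3.53% lower. At an unadjusted p under 0.05, DESeq2 gave 0 of 8 in the authors' deposited table, beside 1916 genes higher and 2070 lower among the 16802 tested. Cuffdiff gave 0 of 8 there, beside 2962 of all 46272 genes. With 8 genes, a count of 0 is near what the share called at the adjusted thresholds gives. The DESeq2 share at an unadjusted p under 0.05 is larger. At either threshold, a count of 0 from 8 genes alone is no result about these genes. In bulk fractions, fewer cells of a type and less RNA per cell cannot be told apart.

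The alpha subunit genes ranged from abundant transcripts to ones near the middle of all tested genes. In the authors' deposited table goa-1, for the Go subunit that restrains transmitter release, stood at 105 FPKM in ASH and 113 FPKM in YFP-negative cells. The Gq gene egl-30, whose product activates phospholipase C beta, had 66.8 FPKM in ASH and 87.4 FPKM in YFP-negative cells there. Next came gpa-16, for a Gi-like subunit that acts redundantly with GOA-1 in positioning the mitotic spindle of the early embryo, with 33.9 FPKM in ASH and 40.5 FPKM in YFP-negative cells in the authors' deposited table. These levels put the Go, Gq and Gi-like genes well inside the upper part of all tested genes, with mean levels at percentiles 92.0, 88.5 and 77.4. The remaining alpha genes lay near the middle. The Gs gene gsa-1, whose product stimulates adenylyl cyclase, stood at 6.99 FPKM in ASH and 7.59 FPKM in YFP-negative cells, and gpa-12, for the worm's G12-class subunit, at 3.39 FPKM in ASH and 6.15 FPKM in YFP-negative cells in the authors' deposited table. Their percentiles were 50.5 and 44.9. Measured per length, goa-1 thus exceeded gsa-1 by 15 times in ASH and 14.8 times in YFP-negative cells, and gpa-12 by 31 times in ASH and 18.3 times in YFP-negative cells.

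The beta and gamma genes included the most abundant members. The gamma gene gpc-2, for the subunit that is broadly expressed in the worm, had 188 FPKM in ASH and 170 FPKM in YFP-negative cells in the authors' deposited table, at percentile 95 of the mean level. The canonical beta gene gpb-1, needed by the other subunits throughout the animal, stood at 123 FPKM in ASH and 126 FPKM in YFP-negative cells there, at percentile 93.0. The divergent Gbeta5-type gene gpb-2, whose product pairs with the RGS proteins EGL-10 and EAT-16 in place of a gamma subunit, had 21.2 FPKM in ASH and 23.7 FPKM in YFP-negative cells in the authors' deposited table. From high to low the order was gpc-2, gpb-1, goa-1, egl-30, gpa-16, gpb-2, gsa-1 and gpa-12, the same in ASH and in YFP-negative cells. With 1 value per group no spread can be set against these steps, so whether neighbours such as gpb-1 and goa-1 differ in level was not tested.

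**Figure D1:**
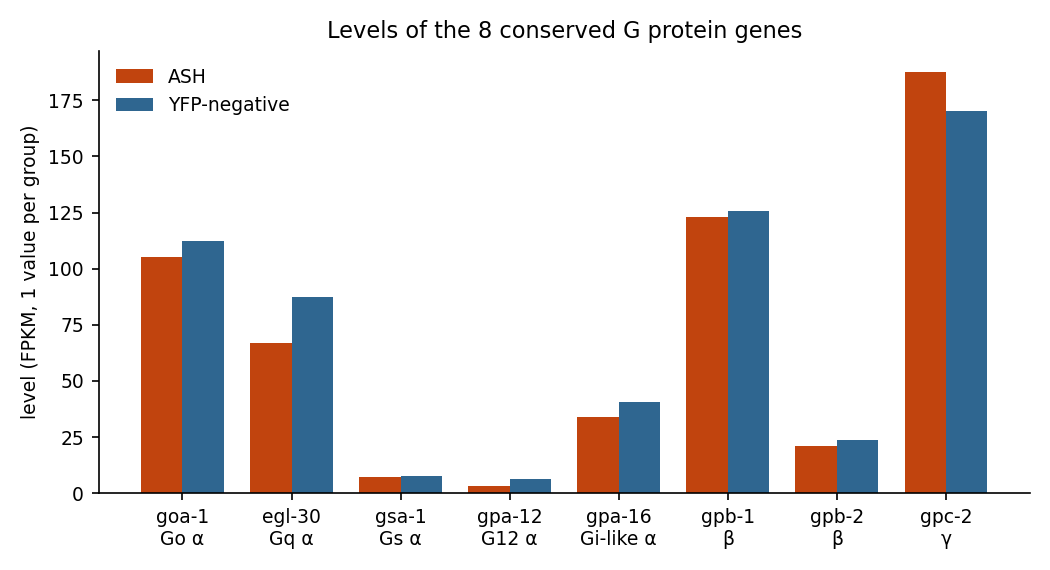
Levels of the 8 genes in FPKM on a linear axis from 0, with 1 bar for ASH (orange) and 1 for YFP-negative cells (blue) per gene, without error bars because the table holds 1 value per group. Both bars of each gene lie close together on this axis, from gpc-2 at 188 FPKM in ASH and 170 FPKM in YFP-negative cells down to gpa-12 at 3.39 FPKM in ASH and 6.15 FPKM in YFP-negative cells.

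Of the DESeq2 log2 fold changes, ASH over YFP-negative cells, 7 of 8 were negative and small. The authors' deposited table gave 0.12 for gpc-2 (adjusted p = 0.839), -0.02 for gpb-1 (adjusted p = 0.980) and -0.06 for goa-1 (adjusted p = 0.929). For gsa-1, gpa-16 and gpb-2 the authors' deposited table gave -0.08 (adjusted p = 0.919), -0.21 (adjusted p = 0.704) and -0.27 (adjusted p = 0.706). The most negative belonged to egl-30, at -0.36 (adjusted p = 0.512), and gpa-12, at -0.60 (adjusted p = 0.384), per the authors' deposited table. The median over the 8 was -0.14, beside -0.09 over all tested genes, and 9125 of the 16802 tested genes had a negative value. Measured from the median of all tested genes, goa-1, gsa-1 and gpb-1 had positive values of 0.03, 0.004 and 0.07, so that their sign depends on the centring. By absolute size, the median was 0.17 for the 8 genes, 0.56 for all tested genes and 0.42 for the 8423 tested genes whose mean level lay in the range of the 8. Of those 8423 genes 19.4% had an absolute log2 fold change of at least 1, and 0 of the 8 did. With only 8 genes, this count of 0 alone is no result about them either. The 8423 genes share the level range of the 8 but were not matched to them in level. The median level of the 8423 was lower than that of the 8. Whether the 8 genes changed less than other genes of like level was not tested.

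The adjusted p alone does not show that a gene was equal in both fractions, and the table gives no standard error. If the authors' DESeq2 p comes from that tool's default Wald test, each fold change and its p imply a standard error, which lay between 0.31 and 0.42 on the log2 scale for the 8 genes. The 95% intervals built on it hold 0 for 8 of 8 genes. Their upper ends stayed below a doubling for 8 of 8, the highest being that of gpc-2 at 1.69-fold and the lowest that of gpa-12 at 1.17-fold. A halving lay outside the interval for 5 genes, goa-1 (-0.67 to 0.55), gsa-1 (-0.86 to 0.70), gpa-16 (-0.81 to 0.40), gpb-1 (-0.69 to 0.65) and gpc-2 (-0.51 to 0.76). It lay inside for egl-30 (-1.01 to 0.28), gpb-2 (-1.06 to 0.52) and gpa-12 (-1.43 to 0.23). For these last genes a level in ASH at or below 0.5 times that in YFP-negative cells cannot be told from no difference at this precision. The intervals are for single genes and are not widened for their number, and since the labels do not tie the libraries to separate cultures or sorts, the spread behind them may be technical only.

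**Figure D2:**
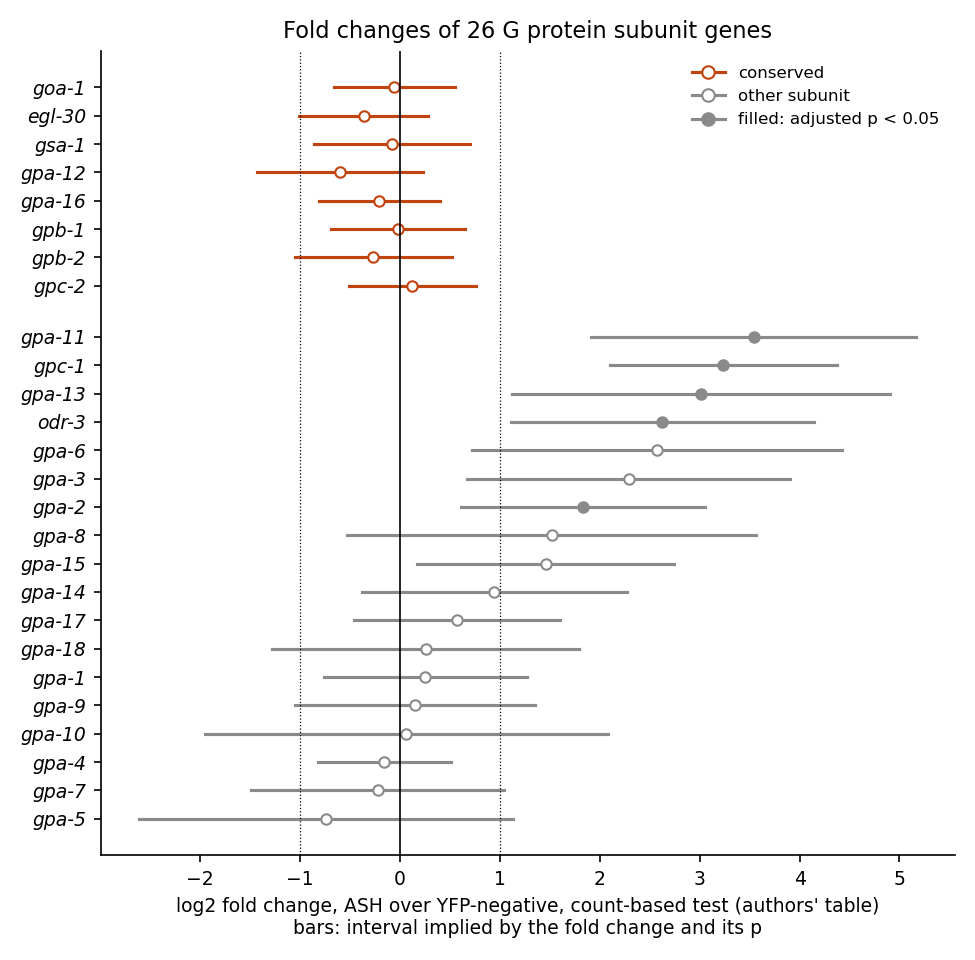
DESeq2 log2 fold changes (ASH over YFP-negative cells) from the authors' deposited table for the 8 conserved genes (orange, top) and the 18 other G protein subunit genes (grey), with the 95% interval implied by each fold change and its p, filled points marking an adjusted p under 0.05 and dotted lines a 2-fold change. The orange intervals all cross 0 and end short of the right dotted line, while 5 grey points are filled, all to the right.

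Some of the other subunit genes of the worm were higher in ASH in the same table. There are 17 further alpha genes and the gamma gene gpc-1, all tested. By DESeq2 5 of the 18 were higher in ASH and 0 lower, against 5.32% and 4.44% of all tested genes, and the median log2 fold change was 1.20. The 5 were gpa-11, gpc-1, gpa-13, odr-3 and gpa-2, at 3.54, 3.24, 3.02, 2.62 and 1.83 in the authors' deposited table. Cuffdiff called 5 of the 18 higher too, against 3.58% of tested genes, with gpa-3 (q = 0.00101) in place of gpa-13 in the authors' deposited table. There, gpa-3 had 2.29 by DESeq2 (adjusted p = 0.0543). These genes were chosen as a contrast with results of the same comparison known, and the difference between the sets was not tested. Their implied standard errors were wider, with a median of 0.72 against 0.34 for the conserved genes, and their median mean level was 2.62 FPKM against 57.1 FPKM.

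Among the alpha subunit genes, the conserved ones held a smaller share of the summed FPKM in ASH. The 5 conserved alpha genes summed to 216 FPKM in ASH and 254 FPKM in YFP-negative cells, and the 17 other alpha genes to 127 FPKM in ASH and 36.3 FPKM in YFP-negative cells, per the authors' deposited table. The conserved share of all alpha FPKM was 62.9% in ASH and 87.5% in YFP-negative cells. The gene goa-1 alone held 30.6% of alpha FPKM in ASH and 38.7% in YFP-negative cells, and egl-30 held 19.5% in ASH and 30.1% in YFP-negative cells. Among all 22 alpha genes, goa-1 and egl-30 led in that order in both fractions. The next rank went to odr-3 in ASH, at 39.2 FPKM against 3.93 FPKM in YFP-negative cells, just above gpa-16 in ASH, while gpa-16 held that rank in YFP-negative cells.

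The gamma class showed the same kind of split, while the beta class, with no subunit outside the conserved set, could not show one. Of the gamma FPKM, gpc-2 held 66.0% in ASH and 95.8% in YFP-negative cells, with gpc-1, a gamma gene of sensory neurons, at 96.8 FPKM in ASH and 7.41 FPKM in YFP-negative cells in the authors' deposited table. Per length, gpc-2 exceeded gpc-1 by 1.94 times in ASH and 23.0 times in YFP-negative cells. The beta class has only the pair gpb-1 and gpb-2, and gpb-1 held 85.3% of it in ASH and 84.2% in YFP-negative cells. Summed over classes, alpha exceeded beta by 2.38 times in ASH and 1.94 times in YFP-negative cells, and gamma exceeded beta by 1.97 times in ASH and 1.19 times in YFP-negative cells. These are ratios of transcript levels with 1 value per group and no error, and the beta sums include gpb-2, whose product does not pair with a gamma subunit.

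**Figure D3:**
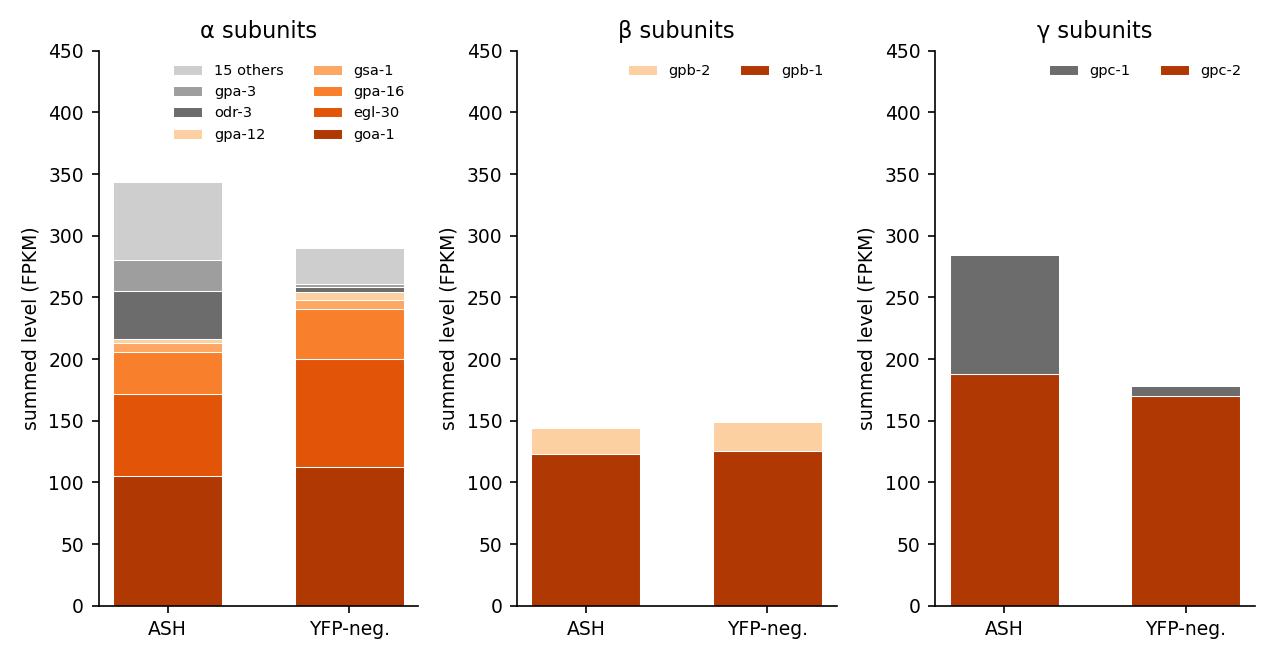
Summed FPKM of the alpha, beta and gamma subunit genes in ASH (left bar) and YFP-negative cells (right bar), with conserved genes in orange tones at the bottom and other subunits in grey. For alpha the orange part reaches 216 FPKM in ASH and 254 FPKM in YFP-negative cells, and the grey part adds 127 FPKM in ASH and 36.3 FPKM in YFP-negative cells.

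Effectors and partners of the conserved subunits were taken from 4 lists that together hold 46 genes, 2 of them on 2 lists. Of the 44 tested, 2 were higher in ASH and 2 lower by DESeq2, shares close to the 5.32% and 4.44% of all tested genes. By Cuffdiff 4 were higher, 3 of them RGS genes, and 2 lower, against 3.58% and 3.53% of tested genes. Among 14 tested genes of Gq and Go effectors and diacylglycerol signalling, 0 were higher and 1 was lower, with a median log2 fold change of -0.23. That gene was plc-3, for a phospholipase C of the gamma type, at 1.21 FPKM in ASH and 9.32 FPKM in YFP-negative cells, and the authors' deposited table gave it a log2 fold change of -2.02 with an adjusted p of 0.00275. The phospholipase C beta gene egl-8, whose product is the direct target of EGL-30, stood at 16.5 FPKM in ASH and 15.2 FPKM in YFP-negative cells there, and did not pass (log2 fold change 0.16, adjusted p = 0.813). The diacylglycerol kinase gene dgk-3, at 3.26 FPKM in ASH and 0.628 FPKM in YFP-negative cells, was called by Cuffdiff (q = 0.04995, just under the threshold) and not by DESeq2 (1.88 on the log2 scale, adjusted p = 0.156), per the authors' deposited table.

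Downstream of Gs, 1 of 11 cyclic AMP genes was higher and 1 lower by DESeq2, against 5.32% and 4.44% of all tested genes, with a median of -0.51. The adenylyl cyclase gene acy-4 was lower, at 0.637 FPKM in ASH and 11.7 FPKM in YFP-negative cells, and the authors' deposited table gave it -2.64 by DESeq2, with an adjusted p of 0.000758, and a Cuffdiff q of 0.00101. The CREB gene crh-1 was higher by DESeq2, at 36.1 FPKM in ASH and 23.1 FPKM in YFP-negative cells and a fold change of 0.66 on the log2 scale (adjusted p = 0.0444), and was not called by Cuffdiff (q = 0.439) in the authors' deposited table. The protein kinase A genes did not pass. In the authors' deposited table kin-1, for the catalytic subunit, stood at 82.2 FPKM in ASH and 86.4 FPKM in YFP-negative cells, and kin-2, for the regulatory subunit, at 34.0 FPKM in ASH and 47.5 FPKM in YFP-negative cells.

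RGS genes, whose products speed up the shutdown of alpha subunits, had mostly positive fold changes, in 8 of 12 tested. Of these 12, 1 was higher and 0 lower by DESeq2, 3 were higher and 0 lower by Cuffdiff, and the median log2 fold change was 0.84. Over all tested genes, 5.32% were higher by DESeq2 and 3.58% by Cuffdiff. The gene rgs-3 was called by both, at 31.1 FPKM in ASH and 5.31 FPKM in YFP-negative cells, and the authors' deposited table gave it a DESeq2 value of 1.89 on the log2 scale with an adjusted p of 0.0307. Cuffdiff alone called rgs-4 (q = 0.0487) and rgs-7 (q = 0.0312), for which the authors' deposited table gave DESeq2 values of 1.19 (adjusted p = 0.0667) and 1.30 (adjusted p = 0.0729). The RGS genes best known for acting on GOA-1 and EGL-30 in the worm were called by neither tool. In the authors' deposited table egl-10, for the RGS of GOA-1, stood at 6.5 FPKM in ASH and 7.89 FPKM in YFP-negative cells, and eat-16, for the RGS of EGL-30, at 8.09 FPKM in ASH and 10.4 FPKM in YFP-negative cells. Their adjusted p were 0.960 and 0.766 there, and with gpb-2, their beta partner, they form a trio whose DESeq2 log2 fold changes were -0.06, -0.24 and -0.27.

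Partners of GOA-1 and GPA-16 in spindle positioning and related GoLoco or exchange proteins gave 0 of 9 by DESeq2, with 2 at an unadjusted p under 0.05, and 1 by Cuffdiff, the rgs-7 named above. In either direction, 9.76% of all tested genes were called by DESeq2 and 7.11% by Cuffdiff. At an unadjusted DESeq2 p under 0.05, 1916 of the 16802 tested genes were higher in ASH and 2070 lower. The median log2 fold change of the 9 partner genes was -0.39. The gene for RIC-8, an exchange factor for alpha subunits, stood at 13.5 FPKM in ASH and 17.5 FPKM in YFP-negative cells in the authors' deposited table. The most abundant members were csnk-1, a casein kinase gene, at 42.9 FPKM in ASH and 48.1 FPKM in YFP-negative cells, and let-99, at 32.3 FPKM in ASH and 34.9 FPKM in YFP-negative cells. The paralogs gpr-1 and gpr-2 are nearly identical, so how reads were divided between them is uncertain.

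**Figure D4:**
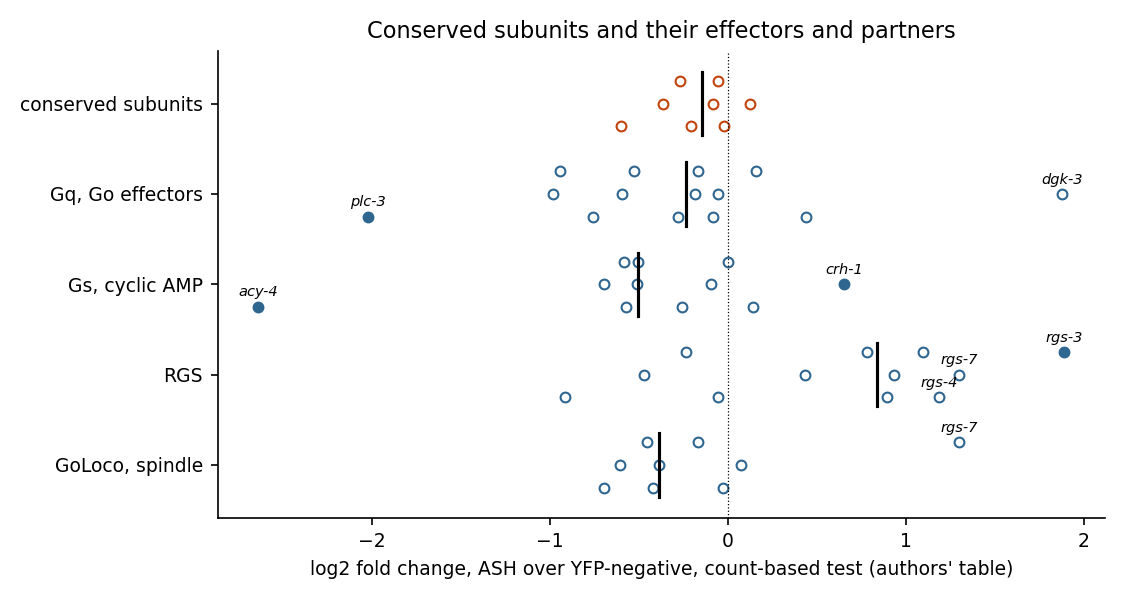
DESeq2 log2 fold changes (ASH over YFP-negative cells) from the authors' deposited table for the conserved subunits (orange) and 4 lists of effectors and partners (blue), 1 point per tested gene, filled at an adjusted p under 0.05, with black ticks at the medians and names for genes called by either tool. The conserved subunits span -0.60 to 0.12 around a median of -0.14, and the RGS median of 0.84 is the one to the right of 0.

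The fractions were checked against marker genes. Over all tested genes, DESeq2 called 5.32% higher in ASH and 4.44% lower. In lists of 8 or 13 genes, a count of 1 is near these shares. Of 9 ASH markers 8 were higher in ASH and 0 lower by DESeq2, with a summed level of 766 FPKM in ASH and 115 FPKM in YFP-negative cells, and 0 of 9 were listed at 0 in ASH. The alpha subunit genes gpa-11 and gpa-13 are among these 9 and also among the other subunits described above. Without them, a count added after the data were seen, 6 of 7 markers were higher and 0 lower, with a summed level of 748 FPKM in ASH and 114 FPKM in YFP-negative cells. Most of both sums came from nlp-3, at 489 FPKM in ASH and 101 FPKM in YFP-negative cells. Of 13 neuronal markers 1 was higher and 0 lower (1708 FPKM in ASH and 894 FPKM in YFP-negative cells), and 0 of 13 were listed at 0 in YFP-negative cells. Intestine markers had 3 of 9 higher and 0 lower (6520 FPKM in ASH and 1745 FPKM in YFP-negative cells), pharynx markers 0 higher and 6 of 9 lower (91.4 FPKM in ASH and 686 FPKM in YFP-negative cells). In the intestine sum asp-1 gave 3660 FPKM in ASH and 692 FPKM in YFP-negative cells. The intestine gene act-5 went the other way, at -1.22 by DESeq2 (adjusted p = 0.186), and was called lower by Cuffdiff (q = 0.0213). Body wall muscle markers had 1 of 8 higher and 0 lower (2230 FPKM in ASH and 1897 FPKM in YFP-negative cells), and epidermis markers 1 of 8 higher and 2 lower (856 FPKM in ASH and 788 FPKM in YFP-negative cells). Of the epidermis sum, col-19 gave 792 FPKM in ASH and 711 FPKM in YFP-negative cells. Glia markers had 0 of 6 tested higher and 3 lower (42.6 FPKM in ASH and 16.3 FPKM in YFP-negative cells), with mir-228, at 35.7 FPKM in ASH, listed at 0 in YFP-negative cells. All 8 germline markers were present in both fractions, summing to 2035 FPKM in ASH and 2332 FPKM in YFP-negative cells with 0 called and a median log2 fold change of -0.18, and 0 of 8 were listed at 0. The conserved subunits are also used in neurons, muscle and the germline and embryo, and the part that such cells in either fraction have in their levels was not tested.

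By the chromosome that the table gives, 6 of the 8 genes (goa-1, egl-30, gsa-1, gpa-16, gpb-2 and gpc-2) lie on chromosome I, which holds 15.8% of the tested genes with a chromosome, while gpb-1 lies on II and gpa-12 on X. Of the 18 other subunit genes 2 lie on I and 8 on V. In the current annotation of the WBcel235 assembly, which may not be the one behind the counts, goa-1, gsa-1, gpa-12 and gpc-2 overlap no other gene. The exons of gpb-1 share 66 bases with those of F13D12.6 on the opposite strand, which had 49.0 FPKM in ASH and 40.9 FPKM in YFP-negative cells, and those of gpb-2 share 48 bases with F52A8.1, also opposite, at 202 FPKM in ASH and 181 FPKM in YFP-negative cells in the authors' deposited table. The libraries were strand-specific, but the sources used here do not say whether the counting used the strand. Exons of egl-30 share 97 bases with the noncoding RNA M01D7.11 on the same strand, which the authors' deposited table listed at 122 FPKM in ASH and 0 in YFP-negative cells. The snoRNA Y95B8A.18, which shares 143 bases with exons of gpa-16, was listed at 0 in both. Exons of gpb-1 and egl-30 also share 48 and 93 bases with a further protein-coding gene each on the same strand, whose levels were not analysed here. How reads from these stretches were assigned was not tested.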

How the data were processed

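Strand-specific libraries of poly(A)-selected RNA from sorted cells were analysed by the authors, with 5 of ASH and 5 of YFP-negative cells, grouped here by sample title. The submitters' processing notes name TopHat2 2.0.13 and Bowtie2 2.2.1 beside FastQC, HTSeq, DESeq2, Cufflinks and Cuffdiff. The sources used here do not give the build, annotation or model settings. The authors' deposited table gives 1 FPKM value per group with 1 added, log2 fold changes, and p-values and q-values of both tools. The Cuffdiff log2 fold change equals the log2 ratio of the deposited values, added 1 included, and so understates changes of low genes. The DESeq2 adjusted p of the authors equals a Benjamini-Hochberg adjustment over the 16802 tested genes. There were 46273 rows, of which 1 repeat was dropped.

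Differential expression was not tested anew. The implied standard error is the absolute DESeq2 log2 fold change of the authors divided by the normal quantile of its p. It assumes a Wald test; over all tested genes it never exceeded 1.07, and any shrinkage of the deposited fold changes passes into the intervals. Members, lists and markers were chosen with earlier results of these data known. All members are named, with each listed gene called by either tool; a gene named without a call was added for its role or level after its values were seen. The listed names rgs-8 and opt-2 were not matched, and 1 further list is not reported here. No likeness of pattern between genes was computed, since there is 1 value per group. Alternatives were other call rules (Cuffdiff's q, an adjusted p under 0.01, 2-fold, both tools, a floor of 5 FPKM), pseudocounts of 0.1 and 5, centring on the median, and sums with the added 1 or from 1 FPKM. Computation used Python 3.11.15, pandas 2.3.3, scipy 1.17.1 and matplotlib 3.10.9.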

Additional observations from a re-analysis of the deposited data

How the results depend on the processing

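By Cuffdiff's q, the count of conserved genes called stayed at 0 in each direction. An adjusted p under 0.01, a 2-fold limit, calls by both tools and a floor of 5 FPKM can only remove DESeq2 calls. From a count of 0 these rules could give nothing but 0, so they are no further check. The median log2 fold change of the conserved genes lay between -0.14 and -0.06 over 4 alternatives. Centring on the median of all tested genes turned the sign of goa-1 (0.028), gsa-1 (0.0037) and gpb-1 (0.066), none of them called. Other subunits higher in ASH numbered 2 instead of 5 at an adjusted p under 0.01. Effector and partner genes higher in ASH numbered 4 by Cuffdiff instead of 2. They numbered 0 at an adjusted p under 0.01, and 1 both with a 2-fold limit and by both tools. Except for Cuffdiff's q, the share of all tested genes called under these rules was not computed. The drops were therefore not set against a general drop in calls. With the added 1 kept, the conserved share of alpha FPKM was 60.5% in ASH and 82.9% in YFP-negative cells and the alpha to beta ratio 2.50 in ASH and 2.06 in YFP-negative cells. From subunits of at least 1 FPKM, the share was 63.1% in ASH and 87.9% in YFP-negative cells and the ratio in ASH 2.37. No paired analysis was possible because the table holds 1 value per group, and for the same reason no library could be left out. Depth is unknown.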

Other observations

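A pair of small enzyme families that include targets of the conserved subunits had a different leading gene or balance in the fractions, a description chosen after the values were seen. The 4 adenylyl cyclase genes, targets of Gs, summed to 2.74 FPKM in ASH and 15.9 FPKM in YFP-negative cells in the authors' deposited table. Of that sum acy-1 held 55.8% in ASH and 18.6% in YFP-negative cells, and acy-4 held 23.3% in ASH and 73.8% in YFP-negative cells. In ASH all 4 lay near the floor, from 0.0706 FPKM for acy-3 to 1.53 FPKM for acy-1, so the ASH shares are uncertain. The level of acy-1 itself was 2.95 FPKM in YFP-negative cells, above that in ASH. The DESeq2 log2 fold change of acy-1 was -0.51 (adjusted p = 0.531), per the authors' deposited table. The 5 phospholipase C genes listed are not all of the beta type that EGL-30 activates. Of these 5, egl-8 held 50.0% of the summed FPKM in ASH and 28.2% in YFP-negative cells, with sums of 32.9 FPKM in ASH and 53.7 FPKM in YFP-negative cells. The gene plc-4 held 37.3% in ASH and 46.4% in YFP-negative cells, where it had the larger share of the pair. Its level was 12.3 FPKM in ASH and 24.9 FPKM in YFP-negative cells (DESeq2 log2 fold change -0.76, adjusted p = 0.175), per the authors' deposited table. The differences between shares rest on 1 value per group and were not tested.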
